A study of Mus musculus with 8 samples.

Results

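Copying the genome once in each cell cycle is the work of a set of proteins that act in a fixed order. In G1 the origin recognition complex with *Cdc6* and *Cdt1* loads the MCM2-7 helicase onto replication origins, and at the start of S phase the kinase *Cdc7* with its partner *Dbf4*, together with cyclin E and CDK2, turns the loaded helicase into a moving fork, where polymerases, the sliding clamp PCNA and the single-strand binding protein RPA copy both strands. Many of these genes are transcribed together at the G1/S boundary by E2F factors, so their messenger RNAs are used as signs of cycling cells, and in MSC cultures they are known to be high in expanding cells and to fall when growth stops. The genes considered here are 54 such genes of the 24346 genes in the table of expression values. They were listed by name, with earlier results of these data known. All 54 were in the table and all 54 passed the minimum level for testing, a mean of 0.1 RPKM (reads per kilobase of transcript, scaled to library depth), which 15342 genes of the table passed.

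The RNA came from bone marrow mesenchymal stem cells (MSCs), adherent stromal cells that can form bone, fat and cartilage, of C57BL/6 WT mice and of littermates with both copies of *Dnmt3l* disrupted (*Dnmt3l* KO, the constitutive tmEnls allele). DNMT3L is a catalytically inactive partner of the de novo DNA methyltransferases. Per the study's methods, the mice were females of 8 to 16 weeks, cells carrying CD11b or CD45 were removed, and MSCs of 3 mice were mixed for each genotype. Undifferentiated MSCs were grown at passage 4 in medium with 20% fetal bovine serum, and differentiating MSCs had been kept for 3 days after confluence in osteogenic medium with 10% serum, 0.1 uM dexamethasone, 10 mM beta-glycerophosphate and 50 uM ascorbic acid 2-phosphate. Each of the 4 groups had 2 libraries. Serum and the osteogenic agents changed together. The density of the undifferentiated cultures is not stated in the sources used here, so confluence may have changed too. The parts of serum, confluence and agents in a change with induction cannot be told apart. Whether replicate libraries stem from different cell mixes is not stated in the sources used here, so the p-values measure the spread between these libraries, which may be technical.

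*Dnmt3l* itself was at 1.56 and 1.09 RPKM in undifferentiated WT and 0.845 and 0.830 RPKM in differentiating WT MSCs, and it was listed at 0 in all 4 KO libraries. The paper reports that the WT reads lay only in the later exons of the gene. It did not detect the canonical DNMT3L protein in MSCs, so these values do not show that WT MSCs make it. The spacing of low values put the depth at 48.1 to 67.1 M reads a library, the deepest being replicate 1 of differentiating WT MSCs. The lowest member value stood on about 23 reads (*E2f8* in differentiating KO replicate 2). Reads of a member were estimated from its longest annotated transcript, so they are fewer where a shorter transcript is in use. The 2 libraries of differentiating KO MSCs differed more from each other than those of any other group, with a median absolute log2 difference of 0.094 over 12269 genes against 0.045 to 0.060 in the other groups. In that group 48 of the 54 members were higher in replicate 1 than in replicate 2. Members also leaned to 1 side in WT, where 44 in differentiating and 37 in undifferentiated MSCs were higher in replicate 2. In undifferentiated KO MSCs 27 were. Of 11 macrophage and leukocyte markers the summed level was 18.7 to 19.5 RPKM in undifferentiated WT, 8.69 to 9.57 in undifferentiated KO, 31.6 to 36.3 in differentiating WT and 13.7 to 14.8 in differentiating KO MSCs. The sum thus differed with genotype in both states, and 0 of the 11 were at 0 in all libraries. Of the 9 markers tested 2 were higher and 4 lower in KO before induction, and 1 higher and 7 lower after it, at an adjusted p under 0.05 (limma). Among all genes tested 14.7% and 17.5% passed before, and 17.8% and 22.9% after induction. Their part in the results that follow was not tested. Of the other markers, 11 mesenchymal stromal genes summed to between 1583 RPKM in undifferentiated WT and 3490 RPKM in differentiating KO MSCs, and 7 endothelial genes to at most 4.88 RPKM. The sum of 7 adipogenic genes was 57.1 to 60.4 RPKM in WT and 65.2 to 67.7 in KO before induction, and 420.03 to 423 in WT and 443 to 468 in KO after it. The sum of 10 osteoblast genes was 1226 to 1358 RPKM in WT and 1513 to 1587 in KO before induction. After it the sum was 2099 to 2322 in WT and 1170.4 to 1239.6 in KO. The sum was thus higher in KO before and lower in KO after induction. Before induction, however, 5 of the 10 genes had a positive and 5 a negative log2 difference. At an adjusted p under 0.05 (limma), 1 of the 10 was higher and 3 lower in KO before induction (14.7% and 17.5% of all genes tested). After induction 0 were higher and 7 lower (17.8% and 22.9%). The part of either list in the results was not tested.

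**Figure D1:**
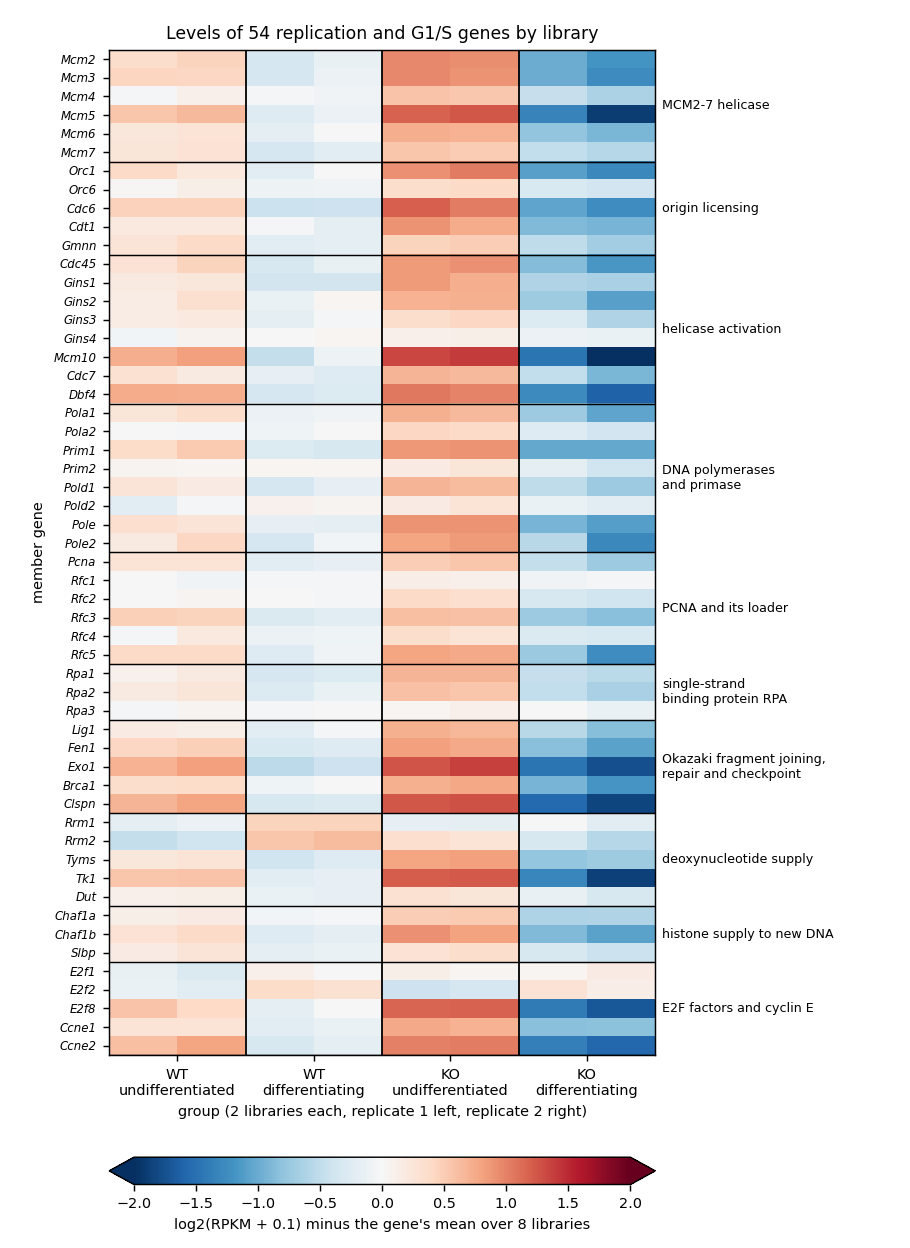
Level of each of the 54 member genes (rows, grouped by role) in each of the 8 libraries (columns), as log2(RPKM + 0.1) minus the gene's mean over the 8 libraries, from blue (low) to red (high). Undifferentiated KO columns are the reddest and differentiating KO columns the bluest in most rows, with *Rrm1*, *Rrm2*, *E2f1* and *E2f2* as visible exceptions.

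The members took the same order of groups in most cases. In 42 of 54 both libraries of undifferentiated KO MSCs were above both of undifferentiated WT, these above both of differentiating WT and these above both of differentiating KO MSCs, as seen in the map of levels by library. Among all genes tested 9.86% had this order. Both libraries of undifferentiated KO MSCs were the highest of the 8 for 49 members (18.5% of all genes), and both libraries of differentiating KO MSCs were the lowest of the 8 for 46 (27.1%). The median of the members' levels, each relative to its own mean on the log2 scale, was 0.24 and 0.27 in the undifferentiated WT libraries, 0.70 and 0.67 in undifferentiated KO, -0.21 and -0.12 in differentiating WT, and -0.61 and -0.83 in differentiating KO. The RNA of a culture is a sum over its cells, so fewer cells in S phase and less of these RNAs in each cell cannot be told apart.

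Since E2F factors are the known regulators of many members, the start regions of the genes are shown beside the values. RefSeq start regions on GRCm38.p6, from 250 bases before to 50 bases after the start, were found for 44 of the 54 members, and for 11141 of the genes tested. They were searched on both strands for 4 forms of the E2F site (TTTCCCGC, TTTCGCGC, TTTGCCGC and TTTGGCGC), for the CCAAT box (CCAAT) that NF-Y binds, and for the CHR element of late cell cycle genes (TTTGAA or TTCGAA). An E2F match was found for 15 of 44 members (34.1%) and for 4.40% of the genes tested. The CCAAT box was found for 61.4% of members and 42.4% of the genes tested, and the CHR for 25% of members and 16.6% of the genes tested. Of 27 mitotic genes with a window, which peak later in the cycle, 1 held an E2F match and 20 (74.1%) a CHR.

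The 15 were *Mcm3*, *Mcm5*, *Mcm6*, *Mcm7*, *Orc1*, *Cdc6*, *Cdt1*, *Gins3*, *Pola1*, *Pold1*, *Pole2*, *Rfc3*, *Lig1*, *Clspn* and *E2f2*. Of the members given library by library whose match lies before the start, the 4 with the largest difference between the states are printed with 120 bases each, 5′ to 3′ on the strand of the gene, to show what these sites look like. Capitals mark the E2F matches, which overlap each other in *Mcm5* and at the first place in *Mcm6*. The stretches are chr8:75109278-75109397 on the plus strand for *Mcm5* (-231 to -112 from the RefSeq start), chr4:108579334-108579453 on the plus strand for *Orc1* (-120 to -1), chr11:98907931-98908050 on the plus strand for *Cdc6* (-220 to -101) and chr1:128359715-128359834 on the minus strand for *Mcm6* (-129 to -10), all GRCm38.p6.
Mcm5: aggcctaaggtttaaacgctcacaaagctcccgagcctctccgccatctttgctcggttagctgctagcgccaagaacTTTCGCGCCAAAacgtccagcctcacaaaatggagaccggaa
Orc1: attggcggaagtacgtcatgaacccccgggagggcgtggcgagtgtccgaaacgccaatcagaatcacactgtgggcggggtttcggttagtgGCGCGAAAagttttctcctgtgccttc
Cdc6: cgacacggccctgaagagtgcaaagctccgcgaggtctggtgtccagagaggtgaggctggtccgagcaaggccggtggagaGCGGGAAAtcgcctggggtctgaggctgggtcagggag
Mcm6: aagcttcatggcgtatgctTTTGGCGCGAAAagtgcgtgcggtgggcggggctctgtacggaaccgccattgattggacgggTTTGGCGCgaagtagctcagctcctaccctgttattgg

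A match describes letters and says nothing of whether a factor is bound. For members with and without a match the medians had the same sign. The median difference of KO from WT on the log2 scale was 0.51 for the 15 with and 0.38 for the 29 without a match in undifferentiated MSCs, and -0.73 and -0.55 in differentiating MSCs. Windows were not found for *Mcm4*, *Gmnn*, *Gins1*, *Gins2*, *Gins4*, *Prim2*, *Pole*, *Rfc2*, *Exo1* and *Ccne2*.

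The first comparison asks whether loss of *Dnmt3l* goes with another level of replication genes before induction. In undifferentiated MSCs 36 of the 54 members were higher in KO than in WT and 0 were lower at an adjusted p under 0.05 (limma on log2(RPKM + 0.1), Benjamini-Hochberg over all genes tested), where 14.7% of all genes tested were higher and 17.5% lower. The differences were small. The median was 0.41 on the log2 scale against 0.00 over all genes, the largest was 0.74 (*Rrm2*), and 0 members passed 2-fold, which 0.613% of all genes did upward and 1.09% downward. At an unadjusted p under 0.05, 44 members were higher and 0 lower (20.7% and 23.5% of all genes). For 51 members both KO libraries were above both WT libraries, where 34.8% of all genes were. Leaving out any 1 of the 4 libraries compared lowered the count of 36, while the median stayed between 0.39 and 0.43.

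The same question after induction gave the opposite direction. In differentiating MSCs 45 of 54 members were lower in KO than in WT and 0 were higher (22.9% and 17.8% of all genes tested), with a median of -0.58 and a range of -1.55 (*Mcm10*) to 0.05 (*E2f1*). At an unadjusted p under 0.05, 49 were lower and 0 higher (27.7% and 22.3% of all genes). For 51 members both KO libraries were below both WT libraries (37.1% of all genes). Past 2-fold 0 members were higher and 11 lower, against 1.36% and 1.95% of all genes. The 11 were *Mcm5*, *Orc1*, *Mcm10*, *Dbf4*, *Exo1*, *Brca1*, *Clspn*, *Rrm2*, *Tk1*, *E2f8* and *Ccne2*. That count was 6 without replicate 2 of differentiating KO MSCs and 3 with a pseudocount of 1 in place of 0.1, and 45 became 30 without replicate 2 of differentiating WT MSCs. With a fit of only the 4 libraries compared 29 of 54 were lower.

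For 34 members the difference passed the test in both states, with KO above WT before and below WT after induction, as 5.16% of all genes tested did. The difference between the states, tested as the interaction of genotype and induction, was negative with an adjusted p under 0.05 for 50 of 54 members and positive for 0, where 20% and 19.4% of all genes passed. For 28 members it was past 2-fold, against 3.42% of all genes in that direction and 2.76% in the other, where 0 members were. The 4 members that did not pass were *Rpa3*, *Dut*, *E2f1* and *E2f2*. Over the 54 members the differences in the 2 states were inversely related (Pearson r = -0.63, Spearman rho = -0.66, a description over genes that share the same 8 libraries), and the difference was larger in size in differentiating MSCs for 39.

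**Figure D2:**
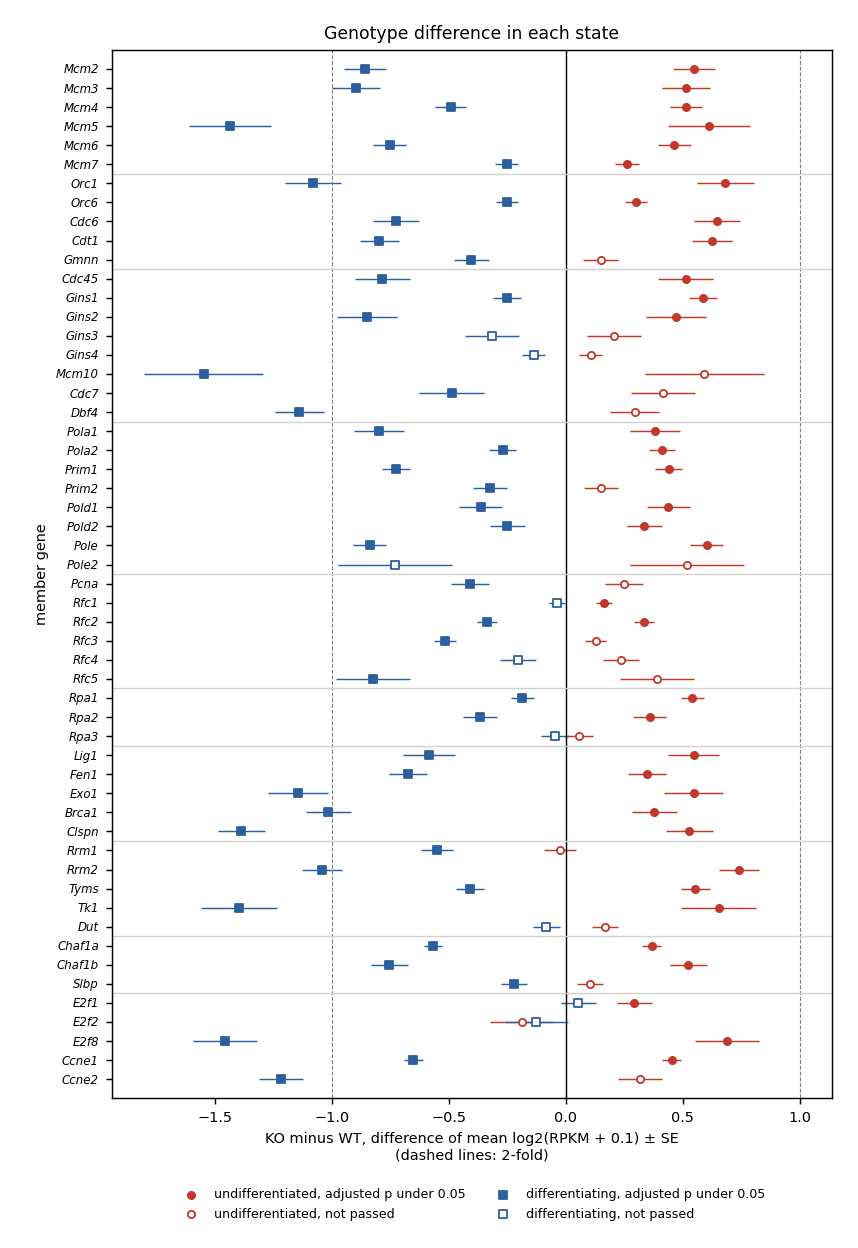
Difference of KO from WT in mean log2(RPKM + 0.1) for each member in undifferentiated (red circles) and differentiating (blue squares) MSCs, with standard errors from limma; filled marks have an adjusted p under 0.05 and dashed lines mark 2-fold. Red marks lie right of 0 for 52 of 54 members and blue marks left of 0 for 53 of 54, with *Mcm10*, *E2f8*, *Mcm5*, *Tk1* and *Clspn* farthest to the left.

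The MCM2-7 helicase is a ring of 6 different subunits that unwinds DNA at the fork. All 6 subunit genes were higher in undifferentiated KO and lower in differentiating KO MSCs (14.7% and 22.9% of all genes tested). *Mcm5* was at 9.37 and 9.98 RPKM in undifferentiated WT and 14.5 and 15.2 in undifferentiated KO libraries, and at 5.30 and 5.87 in differentiating WT and 2.46 and 1.63 in differentiating KO. Its KO level was thus the upper one before and the lower one after induction, without overlap of libraries, with log2 differences of 0.61 (SE 0.18, adjusted p = 0.043, limma) and -1.44 (SE 0.18, adjusted p = 0.0025, limma) in the 2 states. *Mcm6*, the most abundant subunit on average, was at 23.7 and 24.6 RPKM in the WT and 33.6 and 33.0 in the KO libraries before induction, and at 17.8 and 20.2 in WT and 11.7 and 10.7 in KO after it. *Mcm2* was at 11.1 and 11.9 RPKM in undifferentiated WT and 17.0 and 16.7 in undifferentiated KO libraries, and at 6.91 and 7.84 in differentiating WT and 4.32 and 3.73 in differentiating KO. For both genes no library of KO lay within the range of WT in the same state, and in KO MSCs the log2 change with induction was -1.56 for *Mcm6* and -2.04 for *Mcm2*. *Mcm3* was at 12.3 and 12.1 RPKM in the WT and 17.9 and 17.1 in the KO libraries before induction, and at 7.19 and 8.38 in WT and 4.50 and 3.77 in KO after it. *Mcm4* was at 12.9 and 13.9 RPKM in undifferentiated WT and 19.4 and 19.0 in undifferentiated KO libraries, and at 12.7 and 12.4 in differentiating WT and 9.47 and 8.38 in differentiating KO. *Mcm4* showed no change with induction that passed the test in WT (log2 difference -0.09, SE 0.07, adjusted p = 0.27, limma) and fell in KO MSCs by 1.10 on the log2 scale (adjusted p = 2.1e-05, limma). *Mcm7* had the smallest genotype differences of the 6, 0.26 and -0.25 on the log2 scale; on the same strand the annotation places the microRNA genes *Mir25* and *Mir93* over its exons.

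The subunits did not change evenly. *Mcm5* RPKM as a share of *Mcm6* RPKM was 0.396 and 0.406 in undifferentiated WT, 0.430 and 0.461 in undifferentiated KO, 0.298 and 0.290 in differentiating WT, and 0.210 and 0.152 in differentiating KO MSCs. The highest subunit exceeded the lowest 2.17 to 2.53 times in the 4 undifferentiated libraries, 3.36 and 3.44 times in differentiating WT and 5.21 and 7.45 times in differentiating KO libraries. *Mcm5* was the lowest in all 8 libraries. The highest was *Mcm6* in 6 libraries and *Mcm7* in both of differentiating KO MSCs.

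**Figure D3:**
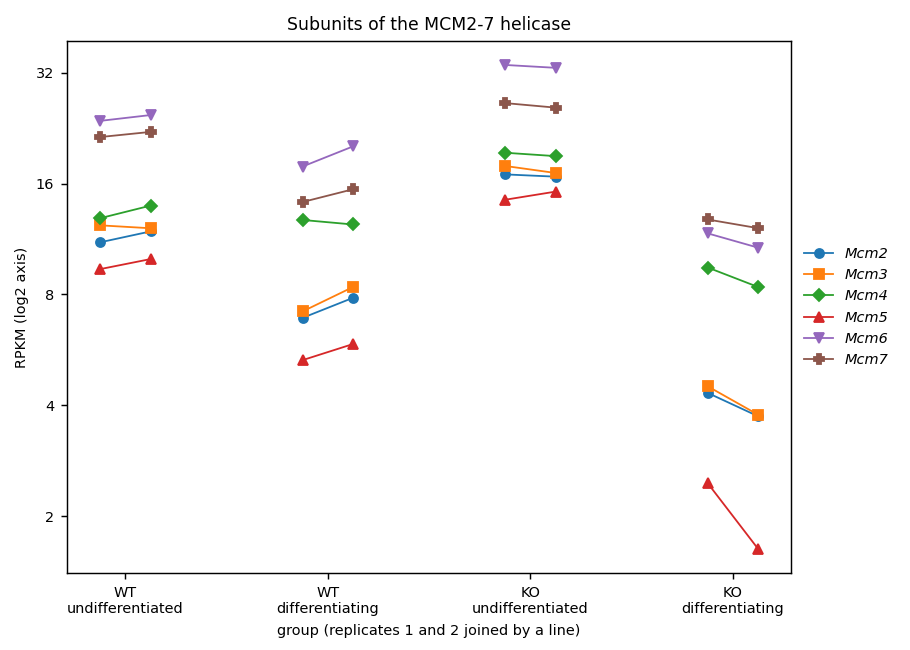
RPKM (log2 axis) of the 6 MCM2-7 subunit genes in each library, the 2 replicates of a group joined by a line. The 6 genes lie within 2.53-fold of each other in undifferentiated MSCs and spread to 5.21-fold and 7.45-fold in the 2 differentiating KO libraries, where *Mcm5* is lowest.

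Of the 5 licensing genes 4 were higher in undifferentiated KO and 5 lower in differentiating KO MSCs (14.7% and 22.9% of all genes tested). *Orc1*, the largest subunit of the origin recognition complex and the one whose level follows the cell cycle, was at 1.64 and 1.44 RPKM in the WT and 2.42 and 2.65 in the KO libraries before induction, and at 1.05 and 1.23 in WT and 0.530 and 0.445 in KO after it. Its groups did not overlap, with log2 differences between genotypes of 0.68 (SE 0.12, adjusted p = 0.0098, limma) and -1.08 (SE 0.12, adjusted p = 0.002, limma). *Cdc6*, the helicase loader, was at 1.63 and 1.63 RPKM in undifferentiated WT and 2.77 and 2.44 in undifferentiated KO libraries, and at 0.832 and 0.838 in differentiating WT and 0.504 and 0.429 in differentiating KO. *Cdt1*, its partner in loading, was at 2.57 and 2.57 RPKM in the WT and 4.25 and 3.79 in the KO libraries before induction, and at 2.18 and 1.93 in WT and 1.16 and 1.12 in KO after it. Both loader genes were below WT in differentiating KO MSCs, with log2 differences of -0.73 (SE 0.10, adjusted p = 0.0032, limma) and -0.80 (SE 0.08, adjusted p = 0.0016, limma). *Orc6*, the smallest and most abundant ORC member here, was at 16.9 and 18.0 RPKM in undifferentiated WT and 21.3 and 21.8 in undifferentiated KO libraries, and at 15.5 and 15.8 in differentiating WT and 13.5 and 12.7 in differentiating KO. Its changes were smaller, with a log2 difference of -0.25 (SE 0.05, adjusted p = 0.0091, limma) in differentiating MSCs. *Gmnn* encodes geminin, the inhibitor of CDT1. Its log2 difference was 0.15 (SE 0.08, adjusted p = 0.18, limma) before induction, which did not pass, and -0.40 (SE 0.08, adjusted p = 0.0089, limma) after it.

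Helicase activation adds CDC45 and the GINS complex to MCM2-7 and needs MCM10 and the kinase CDC7-DBF4. All 8 genes of this step were higher in KO before and lower in KO after induction by their means and without overlap of libraries. Among all genes tested 34.8% were so separated upward before and 37.1% downward after induction. Of the 8 genes 3 passed the test in the first state and 6 in the second (14.7% and 22.9% of all genes tested in these directions). *Mcm10* had the largest difference of all members after induction. It was at 2.55 and 2.72 RPKM in the WT and 3.92 and 4.12 in the KO libraries before induction, and at 1.05 and 1.39 in WT and 0.482 and 0.243 in KO after it. The log2 difference after induction was -1.55 (SE 0.25, adjusted p = 0.006, limma). The 2 differentiating KO libraries lay far apart for this gene, the lower with about 56 reads, and both were below the other 6. *Dbf4*, the regulatory subunit of the kinase, was at 16.7 and 16.5 RPKM in undifferentiated WT and 20.9 and 19.9 in undifferentiated KO libraries, and at 7.90 and 8.19 in differentiating WT and 4.05 and 3.19 in differentiating KO. In undifferentiated MSCs its difference did not pass the test (log2 difference 0.30, SE 0.11, adjusted p = 0.079, limma), and in differentiating MSCs it was -1.14 (SE 0.11, adjusted p = 0.0012, limma). *Cdc45* was at 6.74 and 7.56 RPKM in the WT and 9.99 and 10.5 in the KO libraries before induction, and at 4.42 and 4.99 in WT and 2.99 and 2.41 in KO after it. *Gins2* was at 13.2 and 14.7 RPKM in undifferentiated WT and 19.3 and 19.5 in undifferentiated KO libraries, and at 10.8 and 12.1 in differentiating WT and 7.18 and 5.54 in differentiating KO. Both were lower in differentiating KO than in WT MSCs, with log2 differences of -0.79 (SE 0.12, adjusted p = 0.0044, limma) and -0.85 (SE 0.13, adjusted p = 0.0045, limma), whereas *Gins4*, another GINS subunit and the most abundant member of the step, stayed between 20.7 and 24.7 RPKM in the 8 libraries. It was at 21.8 and 23.9 RPKM in the WT and 24.4 and 24.7 in the KO libraries before induction, and at 22.5 and 23.2 in WT and 20.9 and 20.7 in KO after it. The other 3, *Gins1*, *Gins3* and *Cdc7*, had log2 differences between -0.49 and -0.25 in differentiating MSCs.

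Polymerases alpha, delta and epsilon with the primase make the new strands. Of their 8 genes 6 were higher in undifferentiated KO and 7 lower in differentiating KO MSCs (14.7% and 22.9% of all genes tested). *Pole*, the catalytic subunit of the leading-strand polymerase, was at 3.51 and 3.34 RPKM in undifferentiated WT and 5.24 and 5.27 in undifferentiated KO libraries, and at 2.46 and 2.41 in differentiating WT and 1.41 and 1.23 in differentiating KO. Its second subunit gene *Pole2* was at 3.53 and 4.17 RPKM in the WT and 5.42 and 5.67 in the KO libraries before induction, and at 2.43 and 3.00 in WT and 2.07 and 1.20 in KO after it. *Pole* passed the test in both states (log2 differences 0.60, SE 0.07, adjusted p = 0.0027, limma and -0.84, SE 0.07, adjusted p = 0.001, limma), while *Pole2*, with a standard error of 0.24, passed in neither (adjusted p = 0.15 and 0.057, limma). *Pola1*, the catalytic subunit of the polymerase that starts each strand, was at 4.78 and 5.11 RPKM in undifferentiated WT and 6.61 and 6.34 in undifferentiated KO libraries, and at 3.69 and 3.82 in differentiating WT and 2.38 and 1.88 in differentiating KO. *Prim1*, the catalytic subunit of primase, was at 8.87 and 9.89 RPKM in the WT and 12.6 and 12.9 in the KO libraries before induction, and at 5.70 and 5.46 in WT and 3.33 and 3.34 in KO after it. *Prim2*, its larger partner, was at 12.8 and 12.6 RPKM in undifferentiated WT and 13.8 and 14.6 in undifferentiated KO libraries, and at 12.6 and 12.7 in differentiating WT and 10.9 and 9.34 in differentiating KO. Both primase genes were lower in differentiating KO MSCs, with log2 differences of -0.73 (SE 0.06, adjusted p = 0.00093, limma) and -0.32 (SE 0.07, adjusted p = 0.016, limma), and in WT MSCs *Prim2* showed no change with induction that passed the test (adjusted p = 0.91, limma). *Pola2*, *Pold1* and *Pold2* were also lower there, with log2 differences of -0.27, -0.36 and -0.25.

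*Pcna* encodes the sliding clamp that holds polymerases on DNA, and it was among the most abundant members. It was at 76.6 and 76.3 RPKM in the WT and 88.6 and 93.0 in the KO libraries before induction, and at 53.8 and 56.4 in WT and 45.2 and 38.0 in KO after it. The libraries of the 4 groups did not overlap; the log2 difference was 0.25 (SE 0.08, adjusted p = 0.062, limma) before induction, which did not pass, and -0.41 (SE 0.08, adjusted p = 0.011, limma) after it. The annotation names pseudogenes of *Pcna*, and how the authors' counting shared reads among them is not given in the sources used here. Of the 5 subunits of the clamp loader RFC, *Rfc5* had the largest difference between the states and was at 11.5 and 11.4 RPKM in undifferentiated WT and 15.2 and 14.9 in undifferentiated KO libraries, and at 7.30 and 8.32 in differentiating WT and 5.20 and 3.65 in differentiating KO. *Rfc2* and *Rfc3* were also lower in differentiating KO MSCs, with log2 differences of -0.34 and -0.52, and *Rfc4* (-0.20) and *Rfc1* (-0.04) did not pass. Of the 3 RPA genes *Rpa1* was at 38.1 and 41.0 RPKM in the WT and 57.6 and 57.6 in the KO libraries before induction, and at 28.5 and 29.7 in WT and 26.3 and 24.9 in KO after it. *Rpa1* and *Rpa2* passed the test in both states, and *Rpa3*, between 29.6 and 34.8 RPKM in all 8 libraries, passed in none of the 5 comparisons (adjusted p from 0.083 to 0.66, limma).

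The 5 genes of Okazaki fragment joining, repair and the replication checkpoint were all higher in undifferentiated KO and all lower in differentiating KO MSCs (14.7% and 22.9% of all genes tested). *Clspn*, which encodes claspin, the adaptor that lets ATR activate CHK1 at forks, was at 3.57 and 3.85 RPKM in undifferentiated WT and 5.33 and 5.46 in undifferentiated KO libraries, and at 1.72 and 1.78 in differentiating WT and 0.681 and 0.540 in differentiating KO. Its log2 differences were 0.53 (SE 0.10, adjusted p = 0.013, limma) and -1.39 (SE 0.10, adjusted p = 0.00081, limma), the last with the smallest standard error among the 5 members of largest difference. *Exo1*, an exonuclease of mismatch repair and end resection, was at 1.50 and 1.64 RPKM in the WT and 2.24 and 2.43 in the KO libraries before induction, and at 0.587 and 0.641 in WT and 0.258 and 0.190 in KO after it. *Brca1*, the homologous recombination gene, was at 2.11 and 2.13 RPKM in undifferentiated WT and 2.72 and 2.87 in undifferentiated KO libraries, and at 1.53 and 1.63 in differentiating WT and 0.806 and 0.660 in differentiating KO. Both were past 2-fold below WT in differentiating KO MSCs (log2 differences -1.15, SE 0.13, adjusted p = 0.0019, limma for *Exo1* and -1.01, SE 0.10, adjusted p = 0.0013, limma for *Brca1*). *Fen1*, the flap endonuclease that trims Okazaki fragments, was at 11.0 and 11.5 RPKM in the WT and 14.6 and 14.0 in the KO libraries before induction, and at 6.66 and 6.91 in WT and 4.60 and 3.86 in KO after it. *Lig1*, the ligase that seals them, was at 5.17 and 5.03 RPKM in undifferentiated WT and 7.64 and 7.36 in undifferentiated KO libraries, and at 3.97 and 4.54 in differentiating WT and 3.11 and 2.51 in differentiating KO. These had smaller differences after induction, -0.67 and -0.58 on the log2 scale, both with an adjusted p under 0.05.

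The supply of deoxynucleotides held the members that departed most from the rest. *Rrm2* and *Rrm1* encode the small and large subunits of ribonucleotide reductase, which makes deoxynucleotides from ribonucleotides. *Rrm2* was at 58.0 and 61.2 RPKM in the WT and 102 and 97.3 in the KO libraries before induction, and at 118 and 125 in WT and 64.4 and 54.1 in KO after it. Thus WT libraries were low before and high after induction, and KO libraries the reverse. In WT MSCs *Rrm2* rose with induction by 1.03 on the log2 scale (SE 0.09, adjusted p = 0.00013, limma), the only member past 2-fold upward, and in KO MSCs it fell by 0.76 (SE 0.09, adjusted p = 0.0003, limma). The rise of *Rrm2* in WT lay just under 2-fold, at 0.99 on the log2 scale, without replicate 1 of undifferentiated or without replicate 2 of differentiating WT MSCs, and at 0.93 with median centring. *Rrm1* was at 80.1 and 84.8 RPKM in undifferentiated WT and 81.9 and 80.1 in undifferentiated KO libraries, and at 125 and 126 in differentiating WT and 91.5 and 79.7 in differentiating KO. The 2 WT libraries after induction stood above the other 6, with a rise of 0.60 on the log2 scale in WT (SE 0.07, adjusted p = 0.00046, limma) and 0.08 in KO MSCs, which did not pass (adjusted p = 0.34, limma). The ratio of *Rrm2* to *Rrm1* RPKM was 0.724 and 0.721 in undifferentiated WT, 1.25 and 1.22 in undifferentiated KO, 0.948 and 0.996 in differentiating WT, and 0.703 and 0.679 in differentiating KO MSCs.

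*Tk1*, the thymidine kinase of the salvage pathway and a common marker of S phase, followed the order of most members and was at 21.0 and 21.1 RPKM in the WT and 33.0 and 33.3 in the KO libraries before induction, and at 12.2 and 12.7 in WT and 5.67 and 3.84 in KO after it. Its log2 differences were 0.65 (SE 0.16, adjusted p = 0.028, limma) and -1.40 (SE 0.16, adjusted p = 0.0021, limma). *Tyms*, which makes thymidylate, had log2 differences between genotypes of 0.55 (SE 0.06, adjusted p = 0.0022, limma) and -0.41 (SE 0.06, adjusted p = 0.0042, limma), and a pseudogene of it is annotated. *Dut*, the dUTPase that keeps uracil out of DNA, passed the test in neither state. Of the 3 genes that supply histones to new DNA, *Slbp*, whose product binds the ends of histone messenger RNAs, was at 23.3 and 24.9 RPKM in undifferentiated WT and 25.3 and 26.5 in undifferentiated KO libraries, and at 18.4 and 18.9 in differentiating WT and 16.7 and 15.3 in differentiating KO. *Chaf1b*, a subunit of the chromatin assembly factor CAF-1, was at 5.42 and 5.75 RPKM in the WT and 8.40 and 7.78 in the KO libraries before induction, and at 3.68 and 3.87 in WT and 2.36 and 2.05 in KO after it. All 3 were lower in differentiating KO MSCs (22.9% of all genes tested), with log2 differences of -0.22 for *Slbp*, -0.75 for *Chaf1b* and -0.57 for *Chaf1a*, the large subunit of CAF-1.

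**Figure D4:**
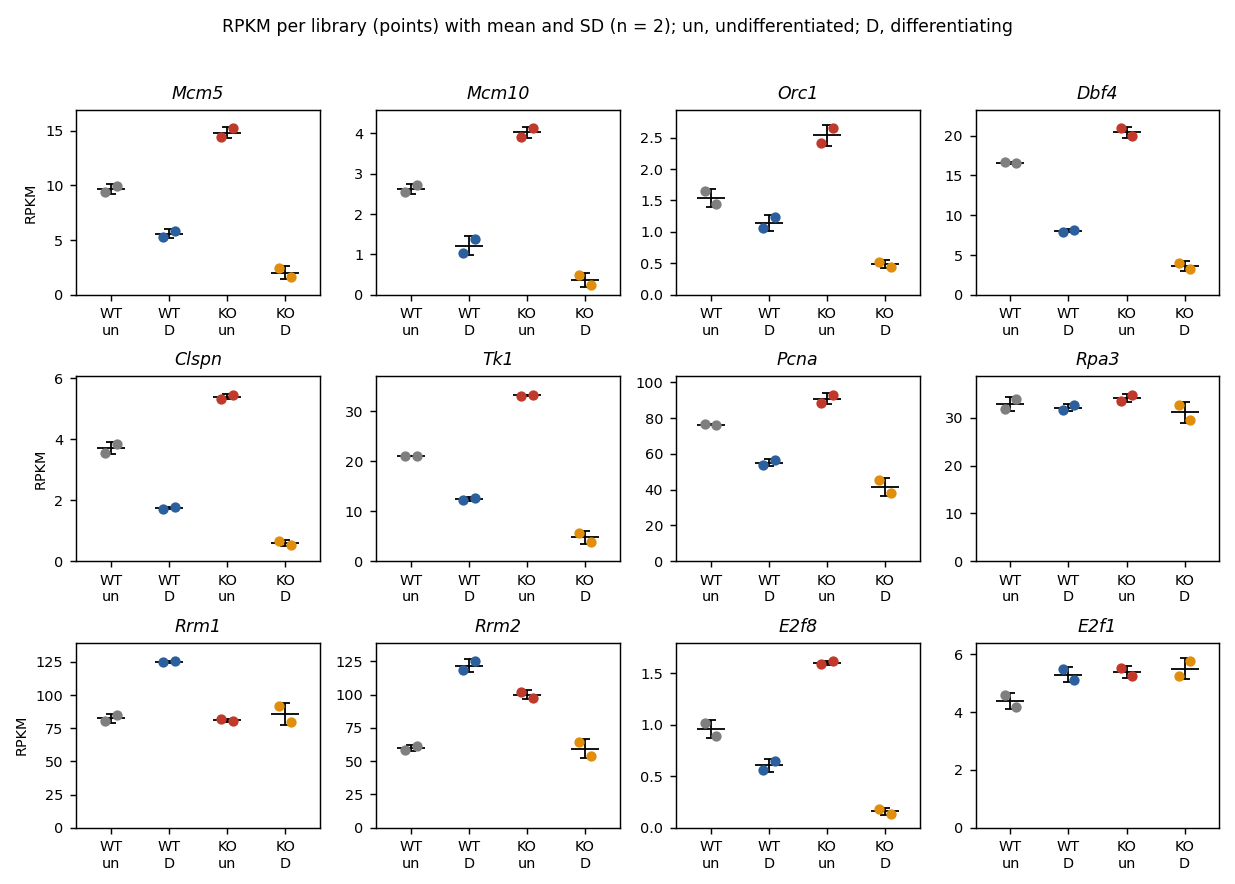
RPKM in each library (points) with group mean and SD (bars, n = 2) for 12 members; un is undifferentiated and D is differentiating. *Mcm5*, *Mcm10*, *Orc1*, *Dbf4*, *Clspn*, *Tk1*, *Pcna* and *E2f8* are highest in undifferentiated KO and lowest in differentiating KO libraries, *Rpa3* is level at 29.6 to 34.8, *Rrm1* and *Rrm2* are highest in differentiating WT libraries, and *E2f1* is lowest in undifferentiated WT.

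Among the E2F factors, *E2f8*, an atypical family member that represses G1/S genes and is itself an E2F target, was at 1.02 and 0.893 RPKM in undifferentiated WT and 1.59 and 1.62 in undifferentiated KO libraries, and at 0.559 and 0.651 in differentiating WT and 0.182 and 0.133 in differentiating KO. Its order of groups was that of most members, and its log2 differences were 0.69 (SE 0.14, adjusted p = 0.013, limma) and -1.46 (SE 0.14, adjusted p = 0.0012, limma). *E2f1*, the activator that drives entry into S phase, was at 4.59 and 4.18 RPKM in the WT and 5.54 and 5.24 in the KO libraries before induction, and at 5.48 and 5.11 in WT and 5.24 and 5.76 in KO after it. *E2f1* was lower in undifferentiated WT than in the other 3 groups, which overlapped; it was 0.29 higher in KO before induction on the log2 scale (adjusted p = 0.03, limma), did not pass after it (0.05, adjusted p = 0.6, limma), and rose with induction in WT by 0.27 (adjusted p = 0.02, limma). *E2f2*, a second activator, was low in all libraries. It was at 0.214 and 0.194 RPKM in undifferentiated WT and 0.160 and 0.174 in undifferentiated KO libraries, and at 0.345 and 0.325 in differentiating WT and 0.321 and 0.277 in differentiating KO. It rose with induction in both genotypes, by 0.52 in WT and 0.58 in KO MSCs on the log2 scale (adjusted p = 0.016 and 0.0086, limma), and genotype differences did not pass. By estimate it stood on as few as 35 reads a library.

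The cyclin E genes, whose products activate CDK2 at the G1/S boundary, both followed the majority. *Ccne1* was at 15.2 and 15.2 RPKM in the WT and 21.3 and 20.4 in the KO libraries before induction, and at 10.8 and 11.4 in WT and 7.01 and 7.04 in KO after it. *Ccne2* was at 5.33 and 6.08 RPKM in undifferentiated WT and 7.09 and 7.15 in undifferentiated KO libraries, and at 2.77 and 3.05 in differentiating WT and 1.28 and 1.11 in differentiating KO. Their log2 differences in differentiating MSCs were -0.65 (SE 0.04, adjusted p = 0.00062, limma) and -1.22 (SE 0.10, adjusted p = 0.00088, limma). In undifferentiated MSCs *Ccne1* passed (log2 difference 0.45, SE 0.04, adjusted p = 0.0013, limma), and *Ccne2* lay at the limit with 0.32 (adjusted p = 0.05, limma).

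The second question of the design is what induction does in each genotype. In WT MSCs 37 of 54 members fell and 4 rose with induction (32.8% and 31.6% of all genes tested), with a median of -0.45. The 4 that rose were *Rrm1*, *Rrm2*, *E2f1* and *E2f2*. Past 2-fold *Mcm10*, *Dbf4*, *Exo1* and *Clspn* fell (4.63% of all genes) and *Rrm2* rose (9.69%). These 5 became 3 without replicate 2 of undifferentiated WT MSCs and 1, *Rrm2*, with a pseudocount of 1. In KO MSCs 50 fell and 1, *E2f2*, rose (36.6% and 36.4%), with a median of -1.40, and 38 fell past 2-fold, against 9.87% of all genes. For 51 members both differentiating libraries of KO MSCs were below both undifferentiated ones (42.8% of all genes), and for 43 in WT (41.9%). The largest falls in KO MSCs were of *Mcm10* (-3.21), *Clspn* (-2.96), *Exo1* (-2.92), *Mcm5* (-2.83), *Tk1* (-2.80) and *E2f8* (-2.73) on the log2 scale. The change was more negative in KO than in WT MSCs for 53 of the 54 members, as the positive interaction of *E2f2* (0.06) was the exception. Across members the changes in the 2 genotypes were correlated (Pearson r = 0.83, Spearman rho = 0.87, n = 54 genes, a description).

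**Figure D5:**
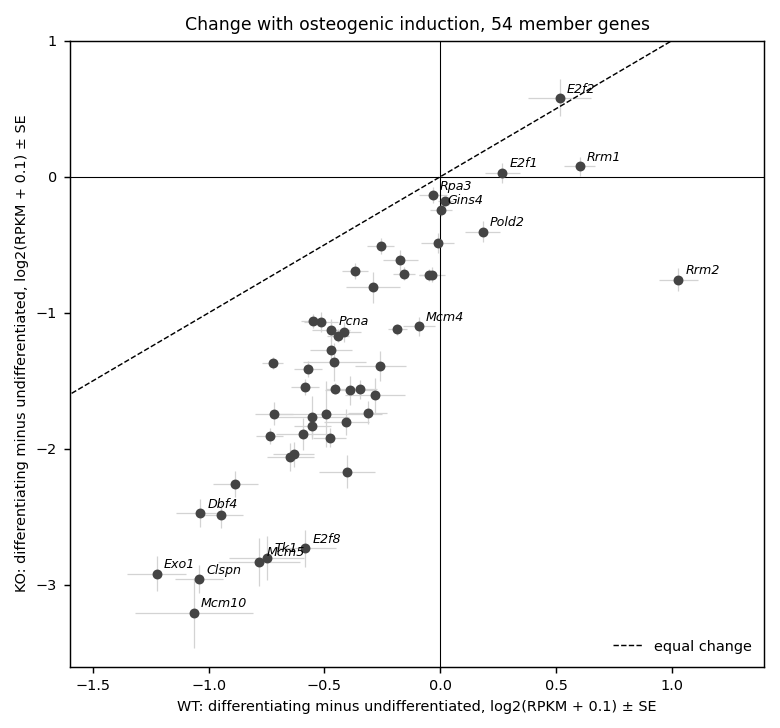
Change with induction in WT (x axis) against KO MSCs (y axis) for the 54 members, as differences of mean log2(RPKM + 0.1) with standard errors; the dashed line marks equal change. All points but *E2f2* lie below the line, and *Rrm2* stands apart with log2 changes of 1.03 in WT and -0.76 in KO MSCs.

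Other genes of the same processes were followed in 5 lists. Among all genes tested, 14.7% were higher and 17.5% lower in undifferentiated KO, and 17.8% higher and 22.9% lower in differentiating KO MSCs. The interaction was negative for 20% and positive for 19.4% of all genes tested. Of 37 other replication genes tested 15 were higher and 2 lower in undifferentiated KO, and 2 were higher and 21 lower in differentiating KO MSCs; the interaction was negative for 22 and positive for 1, with a median of -0.53. The largest were *2810417H13Rik*, listed elsewhere as *Pclaf*, a PCNA-associated factor (-2.17, SE 0.32, adjusted p = 0.004, limma), *Asf1b*, a histone chaperone (-2.17, SE 0.17, adjusted p = 0.00077, limma), and *Uhrf1*, which recruits the maintenance methyltransferase (-1.98, SE 0.34, adjusted p = 0.0071, limma). Of 29 genes of replication-linked repair and checkpoints 13 were higher and 1 lower before, and 1 higher and 18 lower after induction, and the interaction passed for 19, all negative. Among the largest was that of *Fanci*, a gene of the Fanconi anaemia pathway (-1.62, SE 0.24, adjusted p = 0.0044, limma).

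In the list of 24 nucleotide synthesis genes 12 were higher and 2 lower before induction (14.7% and 17.5% of all genes tested). After it 6 were higher and 17 lower (17.8% and 22.9%). The interaction was negative for 17 and positive for 6 (20% and 19.4%). Among the largest were those of *Nme1* (-1.19, SE 0.21, adjusted p = 0.0073, limma) and *Cad*, the first enzymes of pyrimidine synthesis (-1.11, SE 0.07, adjusted p = 0.00047, limma). The 31 other E2F, pocket protein and G1/S cyclin-CDK genes moved both ways. Before induction 11 were higher and 6 lower (14.7% and 17.5% of all genes tested), and after it 8 were higher and 14 lower (17.8% and 22.9%). Their interaction was negative for 17 and positive for 9 (20% and 19.4%). Largest were *Mybl2*, a transcription factor gene of the E2F program (-2.17, SE 0.24, adjusted p = 0.0018, limma), cyclin A2 gene *Ccna2* (-1.64, SE 0.21, adjusted p = 0.0028, limma), and *E2f7*, the partner of *E2f8* (-1.30, SE 0.12, adjusted p = 0.0012, limma). The 9 with a positive interaction, counted after their values were seen, were *Tfdp2*, *Rb1*, *Rbl2*, *Lin52* and the CDK inhibitor genes *Cdkn1b*, *Cdkn1c*, *Cdkn2a*, *Cdkn2b* and *Cdkn2c*.

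Mitotic genes, which peak in G2 and M, were followed as a later step of the cycle. Of 34 tested 10 were higher in undifferentiated KO MSCs (14.7% of all genes tested) and 33 lower in differentiating KO MSCs (22.9%). The interaction was negative for 33 (20%), all of these 33 past 2-fold (3.42%). *Pttg1*, chosen after its value was seen, was the exception. Their median difference was 0.46 before and -1.51 after induction, beside 0.41 and -0.58 for the 54 members, and the median change with induction was -0.86 in WT and -2.87 in KO MSCs, beside -0.45 and -1.40. The difference between the lists was not tested, and *Top2a* stands in both this list and that of other replication genes. *Kif23* (-2.37, SE 0.27, adjusted p = 0.002, limma), *Kif2c* (-2.22, SE 0.29, adjusted p = 0.0028, limma), both kinesin genes of division, and *Cdc25c*, the phosphatase gene of mitotic entry (-2.22, SE 0.47, adjusted p = 0.014, limma), had the largest interactions of the list.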

How the data were processed

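RNA of 8 MSC libraries was depleted of ribosomal RNA and sequenced as stranded 50-base single-end reads per the study's methods. Per the labels and methods, the authors aligned reads to mm10 with TopHat2 2.1.0 and the iGenomes annotation, and the processing notes name Cufflinks 2.2.1 and Cuffdiff; the values they deposited are RPKM per gene and library. All 8 columns matched a sample label, and 0 columns were left without a sample. At the depth and length offset that made the share largest, only 64.5% of 2817 low values were whole multiples of 1 read within 0.05 of a read. The chance share of 10% holds for a depth fixed beforehand, and after such a choice it is higher. Because of this share, and because RPKM are not counts, no count test was run.

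Genes averaging 0.1 RPKM or more were fitted as log2(RPKM + 0.1) with limma 3.58.1 in R 4.3.3, with group means as coefficients, a variance trend and Benjamini-Hochberg adjustment over 15342 genes. Folds on this scale understate changes of low genes. All groups share 1 spread, with 4 residual degrees of freedom. The fit was tested on simulated data. A member past 2-fold has an absolute log2 difference above 1 and an adjusted p under 0.05.

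The members, their roles, the 5 lists and the motifs were chosen with earlier results of these data known, and were fixed together with the alternatives in the closing section. Library values are given for members past 2-fold in differentiating MSCs or in the interaction, for the most abundant of each role and for those opposite to most, and for each other list the 3 largest interactions are named, except that some of these genes are not reported here. Positions and pseudogenes are from GENCODE (GRCm38), start regions from RefSeq GRCm38.p6. Computation used Python 3.11.15, numpy 2.4.6, pandas 2.3.3 and matplotlib 3.10.9. Depth was estimated from the steps between low values, which covers counting error only.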

Additional observations from a re-analysis of the deposited data

Results flagged for a closer look

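With 2 libraries in a group no library can be tested for standing apart from its own group, so the results given here are the members whose difference between KO and WT MSCs itself differed between the states. The test was the interaction of genotype and induction in limma (adjusted p under 0.05 and past 2-fold), which 28 of 54 members passed, all in the negative direction, where 3.42% of all genes tested did. Each value is the KO minus WT difference in differentiating MSCs minus that in undifferentiated MSCs, on the log2(RPKM + 0.1) scale.

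In the MCM2-7 helicase the values were -2.05 for *Mcm5*, -1.41 for *Mcm2*, -1.41 for *Mcm3*, -1.22 for *Mcm6* and -1.01 for *Mcm4*. In origin licensing they were -1.76 for *Orc1*, -1.42 for *Cdt1* and -1.37 for *Cdc6*. Among the genes of helicase activation the value was -2.14 for *Mcm10*, -1.44 for *Dbf4*, -1.32 for *Gins2* and -1.30 for *Cdc45*. For the polymerases and primase it was -1.44 for *Pole*, -1.25 for *Pole2*, -1.18 for *Pola1* and -1.17 for *Prim1*, and for the clamp loader -1.21 for *Rfc5*. Thus each step from loading of the helicase to synthesis held members past 2-fold, with *Mcm10* and *Mcm5* beyond the others of their groups.

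All 5 genes of Okazaki fragment joining, repair and the checkpoint passed, with -1.92 for *Clspn*, -1.69 for *Exo1*, -1.39 for *Brca1*, -1.13 for *Lig1* and -1.02 for *Fen1*. In deoxynucleotide supply the values were -2.05 for *Tk1* and -1.78 for *Rrm2*, although *Rrm2* was low in WT before induction and high after it, unlike the rest. The remaining values were -1.28 for *Chaf1b*, -2.15 for *E2f8*, -1.54 for *Ccne2* and -1.10 for *Ccne1*. The RPA genes had no member past 2-fold.

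Without replicate 1 or without replicate 2 of a group, 23 to 29 members were past 2-fold. The summed level of 11 macrophage and leukocyte markers was lower in KO than in WT MSCs in both states, though not every marker was. The part of these markers in the values was not tested.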

How the results depend on the processing

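None of the medians and none of the called differences of single members recomputed here changed sign, but the count past 2-fold in WT induction, 1 higher and 4 lower, became 1 higher and 0 lower with a pseudocount of 1, and 0 higher and 5 lower with median centring. The alternatives were other pseudocounts (0.01 and 1), other expression minimums, quantile normalization, median centring, no variance trend, a replicate block, a fit restricted to the libraries compared and leaving out each library in turn. Of 252 recomputed counts and medians of the members 230 stayed within their limits. Some of these medians could not move. No variance trend, no expression minimum, the replicate block and the fit of only the libraries compared leave each member's difference as it was. So does leaving out a library of a group not compared. There the differences of single members could not change sign either, and only the counts were put to a test. Of 3739 recomputed differences of single members past the test, 248 kept their sign and no longer passed, and the cause was not tested.

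With a pseudocount of 1, which shrinks the differences of low genes by construction, 3 members were past 2-fold in KO against WT of differentiating MSCs (11 at a pseudocount of 0.1) and 1 in WT induction (5), and the medians were -0.46 for KO against WT of differentiating MSCs, -0.36 and -1.15 for induction in WT and KO, and -0.80 for the interaction. With only the libraries compared, 29 members in place of 45 passed in differentiating MSCs, 42 in place of 36 in undifferentiated MSCs, and 40 (41) and 51 (51) with induction in WT and KO; the cause was not tested. Median centring moved the median change of all genes in WT induction to -0.10 and that of the members to -0.55 in WT and -1.48 in KO MSCs from -0.45 and -1.40; quantile normalization gave -0.54 and -1.54.

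Leaving out 1 library gave 17 to 46 members for KO against WT of undifferentiated MSCs (36 with all), and in differentiating MSCs 6 to 15 past 2-fold, 30 to 47 at the adjusted p alone and medians of -0.67 to -0.46. It gave 3 to 5 past 2-fold in WT induction, medians of -1.53 to -1.35 in KO induction and of -1.11 to -0.93 for the interaction. A group left with 1 library was assumed to vary like the others.

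Same-numbered libraries did not deviate together (correlations of -0.094 to 0.035 over 12269 genes), so no pairing by number was seen in the values. Whether such libraries share mice or a culture cannot be read from these correlations. With the replicate block 32 members passed in undifferentiated MSCs, 44 in differentiating MSCs (11 past 2-fold), 41 and 51 with induction in WT and KO, and 48 for the interaction (27 past 2-fold). Depth limits the lowest members, 8 of which stood on an estimated count under 100 reads in a library.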
